A study of Rattus norvegicus with 12 samples.

Results

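Cxcl9, Cxcl10 and Cxcl11 encode the interferon-induced chemokines that bind the receptor CXCR3, which Cxcr3 encodes. These 4 genes were chosen with earlier results of these data known, so their ranks and counts are no independent support. Their probe sets were taken by the symbol in the array annotation. The genes had 5 of the 31042 deposited probe sets (Cxcl9 had 2, the others 1 each) and were 4 of the 14217 annotated genes. The chemokines belong to the CXC family but lack the glutamate-leucine-arginine motif of the members that attract neutrophils. Interferon-gamma induces them, and type I interferon and NF-kappa-B act on Cxcl10 and Cxcl11 as well. Endothelial cells, epithelial cells and macrophages can secrete them, and they attract CXCR3-bearing activated T cells and natural killer cells into inflamed tissue, including the lung.

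Lung RNA of male wild-type Sprague Dawley rats weighing 250 to 350 g was hybridised to 12 Affymetrix arrays, 3 in each of 4 groups. BD/SEW animals had brain death, from a balloon catheter inflated in the extradural space, and received SEW-2871 intravenously at 0.1 mg/kg 15 min later. BD animals had brain death alone, SEW animals received the same dose of SEW-2871 without brain death, and sham animals were the controls. SEW-2871 is an agonist of the sphingosine 1-phosphate receptor S1P1, which S1pr1 encodes. The labels do not say how long after brain death or the injection the lungs were taken, nor whether SEW animals had the sham operation. So agonist and operation cannot be told apart in SEW against sham, nor brain death and operation in BD/SEW against SEW. The interaction uses the same SEW arrays and has the same limit. The labels do not number the animals either, and p-values measure the spread between these samples, which may be technical. In whole lung, fewer cells of a type and less RNA per cell cannot be told apart.

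Array medians lay between 7.34 and 7.41 (log2). Each group had 3 arrays, and the fits took each gene's spread from all 12 arrays together. The mean of 14 measured cardiac muscle markers of 15 listed was 5.89 to 8.46 in BD/SEW, 6.08 to 12.11 in BD (highest in replicate 2), 5.70 to 7.67 in SEW and 9.99 to 11.13 in sham arrays (log2), so sham arrays held more heart transcript than all others except BD replicate 2. Airway epithelial markers (6 of 7 measured) averaged 9.10 to 9.56 in BD/SEW, 9.43 to 11.33 in BD, 8.67 to 10.12 in SEW and 11.12 to 11.35 in sham arrays. Alveolar epithelial markers (8 of 8 measured) averaged 13.07 to 13.14 in BD/SEW, 12.915 to 13.09 in BD, 12.92 to 13.32 in SEW and 12.65 to 12.90 in sham arrays. Endothelial markers (7 of 8) averaged 11.76 to 11.83 in BD/SEW, 11.58 to 11.86 in BD, 11.95 to 12.02 in SEW and 11.59 to 11.78 in sham arrays. The defining markers of lung were thus present in each array. The alveolar mean was lower in every sham array than in any other, and the endothelial mean was higher in every SEW array than in any other. S1pr1 passed the test in none of the 6 comparisons, its differences lying between -0.06 and 0.11 on the log2 scale.

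The 3 ligand genes lie next to each other on chromosome 14 of the rat assembly GRCr8, in the order Cxcl11, Cxcl10, Cxcl9, with 0 annotated genes between them and 33.4 kb between the first and the last start site, while Cxcr3 lies on chromosome X. Since the ligand genes varied widely between arrays, the 250 bases before each start site are shown, from RefSeq (GRCr8, plus strand). Capitals mark an interferon-stimulated response element core (GAAANNGAA), a gamma-activated site core (TTCNNNGAA) or the kappa-B consensus, each searched on both strands.
Cxcl10, chr14:15988816-15989065: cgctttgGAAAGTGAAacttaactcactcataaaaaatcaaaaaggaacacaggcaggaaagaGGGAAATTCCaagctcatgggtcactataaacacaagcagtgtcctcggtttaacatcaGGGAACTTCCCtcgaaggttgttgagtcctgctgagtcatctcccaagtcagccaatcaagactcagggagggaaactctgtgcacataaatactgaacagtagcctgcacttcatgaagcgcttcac
Cxcl11, chr14:15973478-15973727: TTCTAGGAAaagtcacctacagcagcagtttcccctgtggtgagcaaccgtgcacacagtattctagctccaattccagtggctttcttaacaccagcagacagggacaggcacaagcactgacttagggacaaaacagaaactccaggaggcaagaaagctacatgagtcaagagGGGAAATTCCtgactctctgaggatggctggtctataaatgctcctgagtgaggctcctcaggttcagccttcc
Cxcl9, chr14:16006916-16007165: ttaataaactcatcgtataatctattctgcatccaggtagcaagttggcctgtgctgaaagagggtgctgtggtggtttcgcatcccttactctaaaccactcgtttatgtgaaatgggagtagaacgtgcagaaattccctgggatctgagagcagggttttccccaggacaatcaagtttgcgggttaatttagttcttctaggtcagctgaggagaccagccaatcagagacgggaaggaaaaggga

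The Cxcl10 window held GAAAGTGAA 243 to 235 bases before the start, and kappa-B matches at 187 to 178 and at 128 to 118 bases before it, the second matching on both strands with a shift of 1 base. The Cxcl11 window held TTCTAGGAA at 250 to 242 and a kappa-B match at 74 to 65 bases before the start. In the Cxcl9 window none of these letters occurred upstream, and TTCTCTGAA lay 33 to 41 bases after the start. The Cxcr3 window held none of them. Of 33469 rat promoter windows of 300 bases, 9.71% held the first core, 8.87% the second and 7.51% the kappa-B consensus. A match is a description of the letters, not a binding site.

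Cxcl10 encodes the chemokine also known as IP-10. It was 13.05, 13.45 and 13.06 in the BD/SEW arrays, 11.54, 13.63 and 13.08 in BD, 5.27, 5.88 and 5.14 in SEW, and 8.64, 11.71 and 9.01 in sham arrays (log2, replicates 1 to 3). All brain-death arrays except BD replicate 1 were above every sham array, BD replicate 1 fell inside the sham range, and the SEW arrays were below all others. By group mean the order was BD/SEW (13.19 ± 0.23, SD, n = 3), BD (12.75 ± 1.08), sham (9.79 ± 1.68) and SEW (5.43 ± 0.40). BD/SEW and BD, the neighbours at the top, overlapped, and so did BD and sham. In SEW, 2 of the 3 arrays were below the lower quartile of their own array (5.56 to 5.66 over all arrays). No background signal came with the values, and the size of a difference against such dim SEW values is uncertain.

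Cxcl11, whose product binds CXCR3 and also the scavenging receptor ACKR3, had the same order of group means. It was 11.04, 11.77 and 11.64 in BD/SEW, 8.28, 11.00 and 11.47 in BD, 5.16, 5.44 and 5.01 in SEW, and 8.73, 10.30 and 9.79 in sham arrays (log2). BD replicate 1 was below every sham array, while BD/SEW arrays were above all sham arrays. The means were 11.48 ± 0.39 in BD/SEW, 10.25 ± 1.72 in BD, 5.20 ± 0.22 in SEW and 9.61 ± 0.80 in sham (SD, n = 3). In SEW all 3 arrays were below the lower quartile of their array.

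Cxcl9, also known as MIG, was measured by a brighter and a dimmer probe set. The brighter one gave 9.40, 9.67 and 8.66 in BD/SEW, 7.71, 9.76 and 8.30 in BD, 6.21, 6.12 and 6.32 in SEW, and 6.07, 7.46 and 6.16 in sham arrays (log2). All brain-death arrays were above all sham and SEW arrays, and SEW arrays lay inside the sham range. The dimmer one gave 8.17, 8.26 and 7.56 in BD/SEW, 6.56, 8.63 and 7.12 in BD, 5.40, 5.17 and 5.12 in SEW, and 5.44, 6.10 and 5.35 in sham arrays. Both probe sets thus placed the brain-death arrays above the others, although the dimmer one was below the lower quartile in all 3 SEW and 2 of the 3 sham arrays. The brighter probe set stands for the gene in the fits below.

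Cxcr3, the receptor gene, moved within a far narrower range than its ligands. It was 6.28, 6.31 and 6.38 in BD/SEW, 6.28, 6.04 and 6.39 in BD, 6.79, 6.88 and 6.68 in SEW, and 6.33, 6.51 and 6.73 in sham arrays (log2). The SEW arrays were above all 6 brain-death arrays, and the sham range met that of each other group. No array was below its lower quartile for this probe set, but the gene's mean was below the 25th percentile of all genes.

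**Figure D1:**
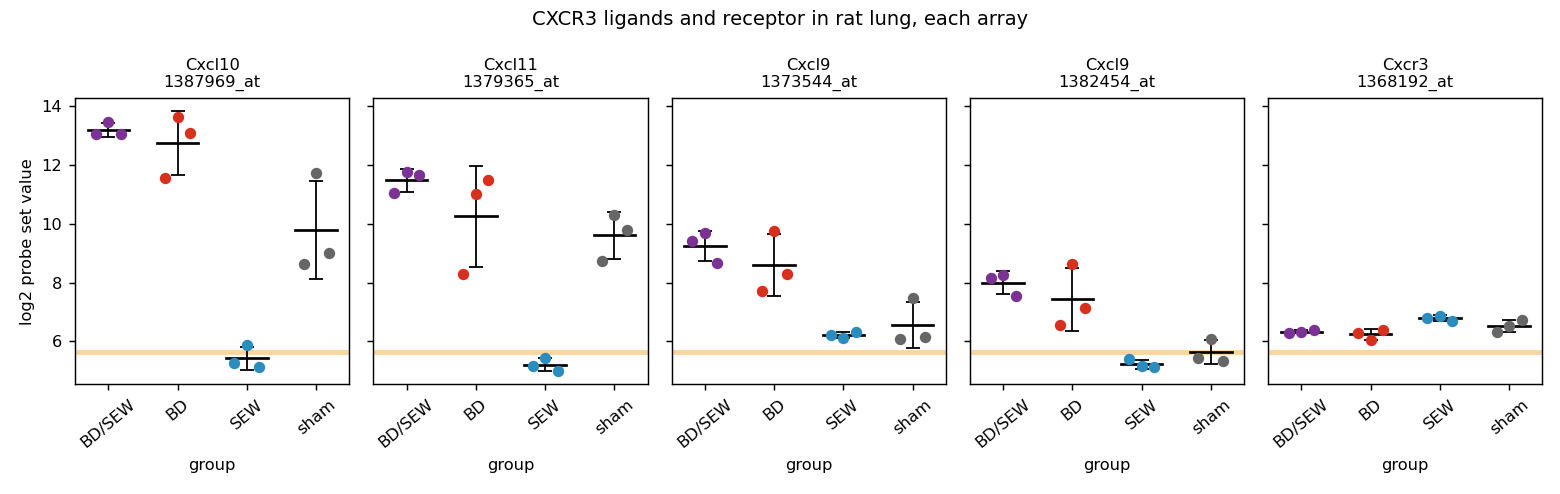
Log2 values (vertical axis) of the 5 probe sets of the 4 genes by group (horizontal axis), with a point for each array, a bar for the group mean, whiskers for the SD (n = 3) and a band for the range of the arrays' lower quartiles. Cxcl10 and Cxcl11 are near or under the band in SEW, at 5.01 to 5.88, and Cxcr3 stays between 6.04 and 6.88 in all groups.

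In every group but SEW, at least 1 array was at the same end of the range for all 3 ligands. Replicate 2 was the highest in BD/SEW, and replicate 1 was the lowest in sham. In SEW, replicate 2 was the highest for Cxcl10 and Cxcl11 and the lowest for Cxcl9. In sham, replicate 2 had the highest value for all 3 ligands, and it also had the highest of the 3 sham values for 17 of 18 measured type I interferon response genes and for 17 of 19 other genes of the interferon-gamma response. In BD, replicate 1 had the lowest value for all 3 ligands, and its mean over the type I response list was 10.45 against 11.17 and 11.16 in the other BD arrays. That list's mean was 10.84 in sham replicate 2 and 9.44 and 9.72 in the other sham arrays.

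BD against sham asks what brain death changes in the lung. None of the 4 genes passed the limma test at an adjusted p under 0.05, where 0.591% of all genes did, and 3 of the 4 had an unadjusted p under 0.05. Cxcl10 was higher by 2.96 ± 0.70 (log2 difference ± SE, n = 3 per group, limma adjusted p = 0.097), a fold of 7.8 with a 95% interval of 2.69 to 22.7, and this was the largest positive difference of the 14217 genes. Cxcl9 was higher by 2.03 ± 0.49 (adjusted p = 0.11), or 4.07-fold (1.94 to 8.57), without overlap between the groups, as for 7.95% of all genes in that direction. Cxcl11 differed by 0.64 ± 0.67 (adjusted p = 0.80) and Cxcr3 by -0.29 ± 0.12 (adjusted p = 0.41). Without sham replicate 2, which was high for all 3 ligands, the Cxcl10 difference was 3.92 and passed (adjusted p = 0.012). Without BD replicate 1, which was low for them, Cxcl11 differed by 1.63 and did not pass (adjusted p = 0.17). Both arrays were singled out by these same values, so leaving them out had to widen the differences and is no support for a rise. Leaving out each of the 6 arrays in turn gave 2.39 to 3.92 for Cxcl10 (limma adjusted p = 0.012 to 0.26). Its call without sham replicate 2 was the only 1 of the 6. For Cxcl9 the differences were 1.44 to 2.47, called in 0 of 6 fits (limma adjusted p = 0.076 to 0.27). With only the BD and sham arrays in the fit, the limma adjusted p was 0.30 for Cxcl10 and 0.28 for Cxcl9. With the replicate number as a block it was 0.036 and 0.053.

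The genes upstream of the ligands were mostly below the threshold in this comparison too. Irf1, which encodes an interferon regulatory factor, rose by 1.37 ± 0.17 (adjusted p = 0.0041), to 12.57, 12.80 and 12.60 in BD arrays, against 11.06, 11.40 and 11.41 in sham arrays. It was the 1 called gene of 12 measured interferon signal transducers (median 0.28, against 0.003 over all genes), and it was called in all 6 fits with a compared array left out. Of 9 interferon ligands and receptors (median 0.20), 0 passed and 3 had an unadjusted p under 0.05. Ifng, which encodes interferon-gamma, was 4.03, 3.96 and 4.06 in BD and 4.01, 4.15 and 4.11 in sham arrays, below the lower quartile in all of them. The interferon-gamma response genes had a median of 0.31 and the type I response genes one of 0.86, with 18 of 19 and 18 of 18 higher in BD. In neither list did a gene pass by limma, while 9 and 8 had an unadjusted p under 0.05.

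SEW against sham asks what the agonist changes without brain death. Cxcl10 and Cxcl11 fell, and Cxcl9 and Cxcr3 did not pass, so that 2 of 4 genes were called lower, where 2.43% of all genes were. Both fell without overlap between the groups, as was so for 10.6% of all genes in that direction. Cxcl10 fell by 4.36 ± 0.70 on the log2 scale (limma adjusted p = 0.0089), with 2.76 log2 units between the highest SEW and the lowest sham array. Cxcl11 fell by 4.40 ± 0.67 (adjusted p = 0.0068), with 3.29 log2 units between the groups. As SEW values lay at the dim end of the arrays, the folds of 20.5 and 21.2 lower are uncertain in size. Cxcl9 differed by -0.35 ± 0.49 (adjusted p = 0.70), with a 95% interval of -1.42 to 0.73, and without sham replicate 2 by 0.10. The receptor gene differed by 0.26 ± 0.12 (adjusted p = 0.21).

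The falls of Cxcl10 and Cxcl11 were called in all 6 fits with a compared array left out, at -4.93 to -3.39 for Cxcl10 and -4.84 to -4.06 for Cxcl11. Over all genes those fits called 321 to 554, against 830 with every array. With the cardiac marker mean as a covariate the falls were -3.56 (adjusted p = 0.20) and -3.54 (adjusted p = 0.17) and were not called. That covariate did not overlap between SEW and sham arrays, so it cannot separate heart transcript from group. Over all genes, 24 were called with it, against 830 without it. Cardiac transcripts moved with these groups, at 5.70 to 7.67 in SEW and 9.99 to 11.13 in sham arrays, as did the 10 adipose markers (6.68 to 6.91 in SEW and 8.59 to 9.56 in sham). Alveolar and endothelial means, given above, were higher in every SEW array than in any sham array, and airway means were lower. The part of these tissues and cells in the ligand differences was not tested.

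Of the NF-kappa-B subunit genes measured, 3 of 4 were called lower in SEW against sham (median -1.08, against 0.02 over all genes). Relb, a subunit of the noncanonical pathway, fell by 1.74 ± 0.15 (adjusted p = 0.00033), Nfkb2 by 1.29 ± 0.18 and Nfkb1 by 0.86 ± 0.09. With the cardiac covariate Relb and Nfkb1 were called (adjusted p = 0.0029 and 0.033) and Nfkb2 was not (0.056). Nor were the other 12 genes of the related lists named for SEW against sham, at adjusted p of 0.14 to 0.35. Over all genes 24 were called with that covariate, against 830 without it, so a lost call is not particular to these genes. Irf1 fell by 0.73 ± 0.17 (adjusted p = 0.030) and Stat2, which carries type I interferon signals, by 0.90 ± 0.20 (adjusted p = 0.028). They were the 2 called of 12 signal transducers (median -0.38), but were called in 2 and 1 of the 6 fits with an array left out. Of 9 ligands and receptors of interferon, Ifnar2, a type I receptor subunit, fell by 0.70 ± 0.18 (adjusted p = 0.047, called in 1 of 6 fits with an array left out). Gbp4, a guanylate-binding protein gene, fell by 1.86 ± 0.41 as the 1 called of 19 interferon-gamma response genes (median -0.30), and was called in 3 of 6 fits with an array left out. Of the 18 type I response genes (median -0.75), Rsad2, Dhx58 and Ifit2 fell by 2.76 ± 0.63, 1.54 ± 0.34 and 1.37 ± 0.28. With an array left out, Rsad2 and Dhx58 were called in 1 and Ifit2 in 2 of 6 fits.

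In SEW against sham Cxcl1 and Cxcl2, which attract neutrophils, fell by 2.02 ± 0.36 and 2.72 ± 0.63, and Cxcl3 rose by 0.74 ± 0.17, among 9 other CXC chemokines (median -0.26). With an array left out, Cxcl1 was called in 6 of 6 fits, and Cxcl2 and Cxcl3 in 1 each. Of 13 modifiers and partners (median 0.10), Mmp9, a protease that can cleave chemokines, fell by 2.12 ± 0.45 (called in 2 of 6 fits with an array left out). Ackr1, a receptor of venules that binds and transports chemokines, fell by 1.40 ± 0.23. Dpp4, the peptidase that trims the amino end of all 3 ligands, differed by 0.38 ± 0.14 (adjusted p = 0.12).

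The comparison of BD/SEW with BD concerns the effect of the agonist given after brain death. None of the 4 genes passed, where 0.0141% of all genes did, and none had an unadjusted p under 0.05 by limma. Cxcl10 differed by 0.44 ± 0.70 (adjusted p = 0.99), with a 95% interval of 0.466 to 3.93 for the fold. Cxcl11 differed by 1.23 ± 0.67 (adjusted p = 0.92, fold interval 0.85 to 6.51) and Cxcl9 by 0.65 ± 0.49 (adjusted p = 0.96, fold interval 0.748 to 3.31). Each ligand's interval held a fold of 1, so no difference was detectable with these arrays. Without BD replicate 1 the differences were -0.17 for Cxcl10 and 0.25 for Cxcl11. Cxcr3 differed by 0.09 ± 0.12 (adjusted p = 0.99), and its 95% fold interval was 0.882 to 1.28. In each of the 7 related lists 0 genes passed by limma, the medians lying between 0.05 and 0.26 and 0 to 2 genes a list having an unadjusted p under 0.05.

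**Figure D2:**
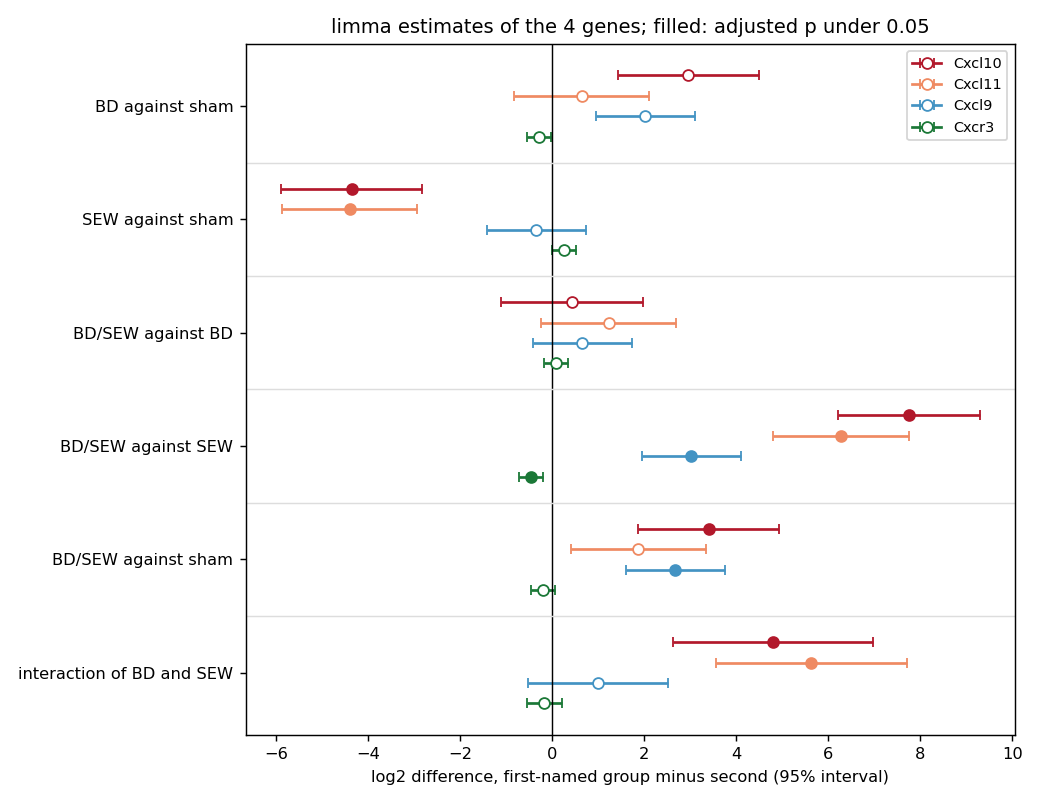
Log2 differences (horizontal axis) of Cxcl10, Cxcl11, Cxcl9 and Cxcr3 in the 6 comparisons (vertical axis), with 95% intervals from limma and filled points at an adjusted p under 0.05. For BD/SEW set against SEW all 4 points are filled, and for BD against sham 0 are.

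The comparison of BD/SEW with SEW concerns brain death in agonist-treated animals, where brain death and operation cannot be told apart. All 3 ligands rose and Cxcr3 fell, where 4.75% of all genes were called higher and 5.04% lower. Cxcl10 rose by 7.76 ± 0.70 (limma adjusted p = 9.6e-05), the largest rise of the 14217 genes. Cxcl11 rose by 6.28 ± 0.67 (adjusted p = 0.00026), the second largest. Cxcl9 rose by 3.03 ± 0.49 (adjusted p = 0.0026), or 8.15-fold (95% interval 3.87 to 17.1), and its dimmer probe set by 2.77 ± 0.42. Between the lowest BD/SEW and the highest SEW array lay 7.17 log2 units for Cxcl10, 5.60 for Cxcl11 and 2.34 for Cxcl9, and 13.2% of all genes were separated in this direction. The ligand rises were called in all 6 fits with a compared array left out, the Cxcl10 rise being 7.61 to 7.98.

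Cxcr3 fell by 0.46 ± 0.12 in that comparison (adjusted p = 0.036), a fold of 0.727 (95% interval 0.604 to 0.875), without overlap, as for 18.6% of all genes in this direction. Leaving out any of the 6 arrays ended the call, the adjusted p being 0.070, 0.10 and 0.053 without SEW replicate 1, 2 or 3, and 0.12, 0.11 and 0.077 without BD/SEW replicate 1, 2 or 3. These fits also called fewer of all genes, 790 to 1360 against 1392 with every array. T lymphocyte markers, from cells that carry the receptor, averaged 6.91 to 7.21 in BD/SEW and 6.81 to 7.06 in SEW arrays (11 of 12 measured). Natural killer and cytotoxic cell markers averaged 7.72 to 8.24 in BD/SEW and 7.12 to 8.22 in SEW (9 of 9 measured). Neither marker mean was lower in BD/SEW, and their part in the Cxcr3 difference was not tested.

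Most of the interferon signalling genes rose with the ligands in BD/SEW against SEW. Of 12 signal transducers 7 were called higher (median 0.97, against -0.01 over all genes). Among them were Usp18, a brake on type I signalling, at 2.45 ± 0.48, Irf1 at 2.44 ± 0.17, the feedback inhibitor gene Socs1 at 2.37 ± 0.30 and Irf7 at 1.77 ± 0.34. Of 9 ligands and receptors 4 were called higher (median 0.18). They were Ifngr2 by 1.23 ± 0.18, Ifnar2 by 1.00 ± 0.18, Il12a by 0.78 ± 0.17 and Ifnar1 by 0.75 ± 0.20 (called in 1 of 6 fits with an array left out). Ifng was 3.95, 4.02 and 4.07 in BD/SEW and 4.00, 3.99 and 3.91 in SEW arrays, below the lower quartile of every array, and Ifnb1, which encodes interferon-beta, averaged 4.99 ± 0.08 in BD/SEW and 4.89 ± 0.03 in SEW (SD, n = 3), again below it. Neither interferon gene passed, and at such dim values a change could have been missed.

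The response genes of interferon held some of the widest differences. Of 19 interferon-gamma response genes 9 were called higher (median 0.94). They were led by Gbp4 (3.73 ± 0.41), Gbp2 (3.07 ± 0.46), Igtp, an immunity-related GTPase gene (2.40 ± 0.37), and Ubd, which encodes a ubiquitin-like protein (1.90 ± 0.45, called in 3 of 6 fits with an array left out). Of 18 type I response genes 12 were called higher (median 1.62), led by Rsad2 (5.14 ± 0.63), Cmpk2 (3.93 ± 0.55), Oasl (3.17 ± 0.45) and Ifit3 (3.06 ± 0.48). All 4 measured NF-kappa-B subunit genes rose (median 1.45), Relb by 2.26 ± 0.15, Nfkb2 by 2.09 ± 0.18, Nfkb1 by 0.82 ± 0.09 and Rela by 0.67 ± 0.11. Genes of the Gbp, Oas and Ifit families can share probe sequence, which makes the values of single family members uncertain.

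Of 13 modifiers and partners of CXCR3 3 were called higher in BD/SEW against SEW (median 0.13). Mmp9 rose by 3.32 ± 0.45, Pf4, which encodes the platelet chemokine CXCL4, a ligand of CXCR3, by 1.67 ± 0.26, and Ackr1 by 1.41 ± 0.23. Dpp4 differed by -0.16 ± 0.14 (adjusted p = 0.57). Of 9 other CXC chemokines 3 were called higher (median 0.47). They were Cxcl2 by 3.28 ± 0.63, Cxcl1 by 3.10 ± 0.36 and Ppbp, a platelet chemokine gene, by 1.54 ± 0.38 (called in 2 of 6 fits with an array left out). Neutrophil markers (7 of 9 measured) averaged 11.49 to 11.98 in BD/SEW and 9.33 to 10.98 in SEW arrays, and monocyte and macrophage markers (6 of 9) 9.36 to 9.80 and 9.04 to 9.90. Endothelial markers, given above, were lower in every BD/SEW array than in any SEW array. The part of these cells in the ligand rises was not tested.

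**Figure D3:**
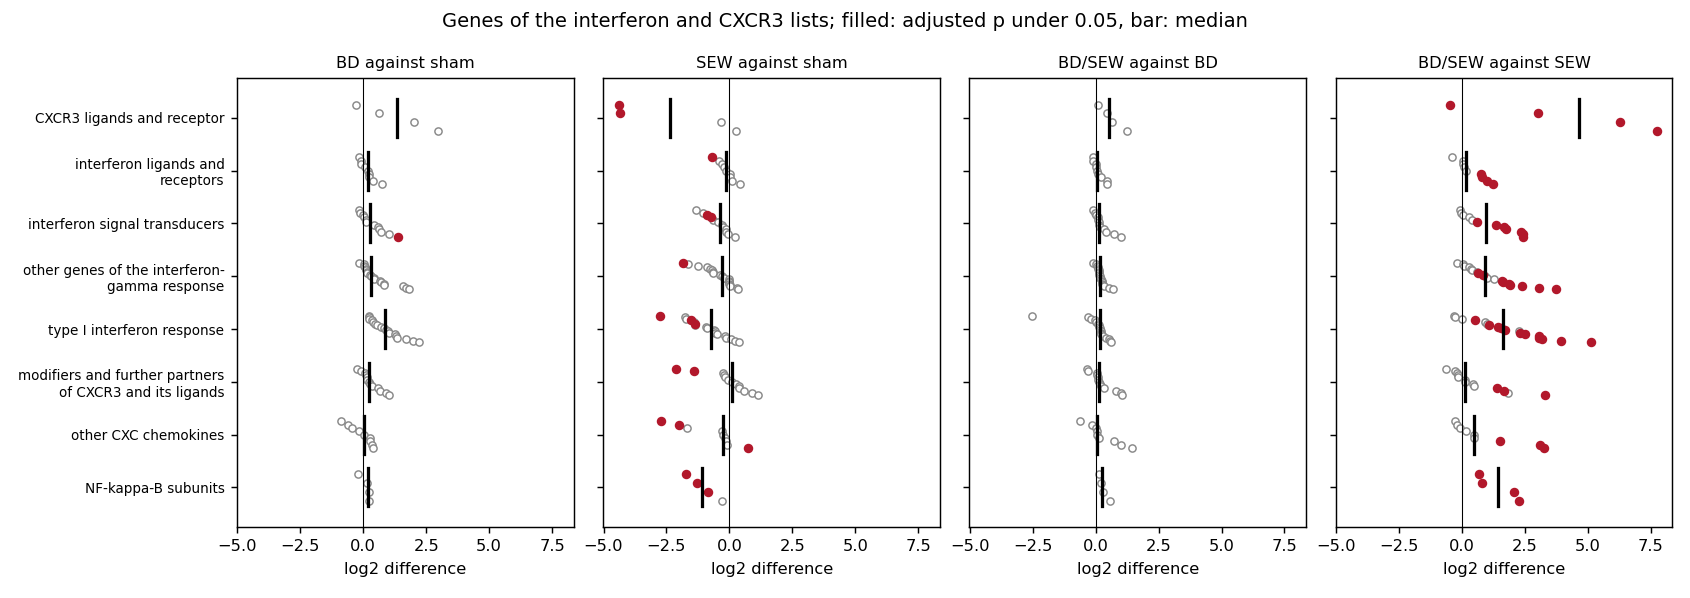
Log2 differences (horizontal axis) of the 4 genes and of each measured gene of 7 related lists (vertical axis) in 4 comparisons, filled at a limma adjusted p under 0.05, with a bar at each list's median. Cxcl10 and Cxcl11 lie furthest to the right in BD/SEW against SEW, at 7.76 and 6.28, and Irf1, at 1.37, is the 1 filled point in BD against sham.

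The comparison of BD/SEW with sham concerns the distance of treated brain-dead animals from controls. Cxcl10 and Cxcl9 rose, so that 2 of 4 genes were called, where 1.7% of all genes were called higher. Cxcl10 rose by 3.40 ± 0.70 (limma adjusted p = 0.030), or 10.6-fold (95% interval 3.63 to 30.7), the largest rise of the 14217 genes. Cxcl9 rose by 2.68 ± 0.49 (adjusted p = 0.018), or 6.41-fold (3.05 to 13.5). Cxcl11 differed by 1.88 ± 0.67 without passing (adjusted p = 0.16), although its groups did not overlap, as was so for 13.7% of all genes in this direction. Cxcr3 differed by -0.20 ± 0.12 (adjusted p = 0.44). Markers of other cells and tissues were also separated between these groups. Neutrophil markers averaged 11.49 to 11.98 in BD/SEW and 10.02 to 11.15 in sham arrays, adipose markers 6.66 to 7.28 in BD/SEW and 8.59 to 9.56 in sham, and airway and cardiac markers, given above, were lower in every BD/SEW array than in any sham array. Alveolar markers were higher in every BD/SEW array than in any sham array. The part of these cells and tissues in the ligand rises was not tested.

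These calls were lost in most fits with an array left out. Such fits also called fewer of all genes, 91 to 322 against 408 with every array. Cxcl10 lost its call without sham replicate 1 (adjusted p = 0.10) or 3 (0.078) and without BD/SEW replicate 1 (0.095), 2 (0.13) or 3 (0.069), and Cxcl9 without sham replicate 1 (0.070) or 3 (0.051) and BD/SEW replicate 1 (0.075) or 2 (0.092). Over all 6 fits with an array left out, including those that kept the call, the log2 differences were 2.83 to 4.36 for Cxcl10 and 2.43 to 3.13 for Cxcl9. With the cardiac covariate they were 4.14 (adjusted p = 0.16) and 3.45 (adjusted p = 0.068). The covariate did not overlap between these groups, so it cannot separate heart transcript from group. Over all genes, 6 were called with it, against 408 without it. Cxcl11 was called with the compared arrays only (adjusted p = 0.042) and with array weights (adjusted p = 0.032). In the related lists, Irf1 rose by 1.71 ± 0.17 (adjusted p = 0.0014, called in all 6 fits with an array left out) and Socs1 by 1.34 ± 0.30, while Gbp4 rose by 1.87 ± 0.41 and Igtp by 1.76 ± 0.37. Ifngr2 rose by 0.82 ± 0.18, Pf4 by 1.41 ± 0.26, Icam1, an adhesion molecule gene, by 0.95 ± 0.18, Psmb8, an immunoproteasome gene, by 0.91 ± 0.22, Nfkb2 by 0.80 ± 0.18 and Arrb1, which encodes a beta-arrestin, by 0.50 ± 0.12. With the cardiac covariate Irf1 alone of these was called (adjusted p = 0.046), and with an array left out Arrb1 and Nfkb2 were called in 0 of 6 fits, Socs1, Gbp4, Igtp, Ifngr2 and Psmb8 in 1, Pf4 in 2 and Icam1 in 3. Of 12 signal transducers 2 were called higher, as were 5 of 19 interferon-gamma response genes and 0 of 18 type I response genes. Called or not, 11, 19 and 17 of them were higher, with medians of 0.31, 0.67 and 1.11. Of the type I response genes 12 had an unadjusted p under 0.05 by limma.

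The interaction asks whether the brain-death difference depends on the agonist, as the difference BD/SEW minus SEW less the difference BD minus sham. Since it uses the SEW arrays, agonist and operation cannot be told apart in it. Cxcl11 had the largest positive interaction of the 14217 genes, 5.64 ± 0.95 (limma adjusted p = 0.021), its brain-death difference being 6.28 with the agonist and 0.64 without it. Cxcl10 had an interaction of 4.79 ± 0.99 (adjusted p = 0.0499), from 7.76 with the agonist and 2.96 without it. So 2 of 4 genes were called positive, where 0.851% of all genes were. For Cxcl9 the interaction was 1.00 ± 0.69 (adjusted p = 0.61, 95% interval -0.52 to 2.52) and for Cxcr3 -0.17 ± 0.17 (adjusted p = 0.73).

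The same 2 genes were the ones that fell in SEW against sham, a difference that is part of the interaction and shares its arrays. Between the brain-death groups Cxcl10 differed by 0.44 and Cxcl11 by 1.23, and between the groups without brain death by -4.36 and -4.40. Cxcl11 was called in 6 of 12 fits with an array left out, and not without sham replicate 2 (adjusted p = 0.057) or 3 (0.0503), SEW replicate 1 (0.05002) or 3 (0.055), or BD/SEW replicate 1 (0.055) or 2 (0.071). Cxcl10 was called in 4 of 12, without sham replicate 1 or 2, BD replicate 2 or SEW replicate 2. In the other 8, without sham replicate 3, BD replicates 1 or 3, SEW replicates 1 or 3 or any BD/SEW array, its adjusted p was 0.065 to 0.14. Over all genes the 12 fits called 38 to 235, against 135 with every array. Among related genes Relb (2.02 ± 0.21), Nfkb2 (1.87 ± 0.25) and Nfkb1 (1.01 ± 0.12) were called in all 12, while Mmp9 (3.11 ± 0.64) was called in 1 and Cxcl1 (2.75 ± 0.51) in 3 of them. Of the interferon signal transducers and both response lists 0 genes passed by limma, with 5 of 12, 6 of 19 and 7 of 18 at an unadjusted p under 0.05. The share of all genes at that unadjusted level was not counted.

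Genes whose profile over the 12 arrays was nearest to that of each ligand were found from the root-mean-square difference of values centred on each gene's mean, over 14216 other genes. Nearest to Cxcl10, whose own values had a spread of 3.21 log2 units, were Rsad2, an antiviral gene (1.14 log2 units away), Cxcl11 (1.15), Sele, the endothelial selectin gene (1.43), Cmpk2, a mitochondrial kinase gene (1.61), and the monocyte chemokine gene Ccl2 (1.64). Nearest to Cxcl11 (spread 2.50) were Rsad2 (0.98), Cxcl10 (1.15), Sele (1.20), Cmpk2 (1.20) and Ebi3, a cytokine subunit gene (1.26). Cxcl9 (spread 1.41) was nearest to other genes, Igtp (0.47), Oasl (0.58), Gbp2 (0.59), the chemokine gene Ccl4 (0.60) and Oas1b (0.62). Since the measure counts size as well as shape, genes with a narrow range cannot be near Cxcl10, and it is given as a description.

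**Figure D4:**
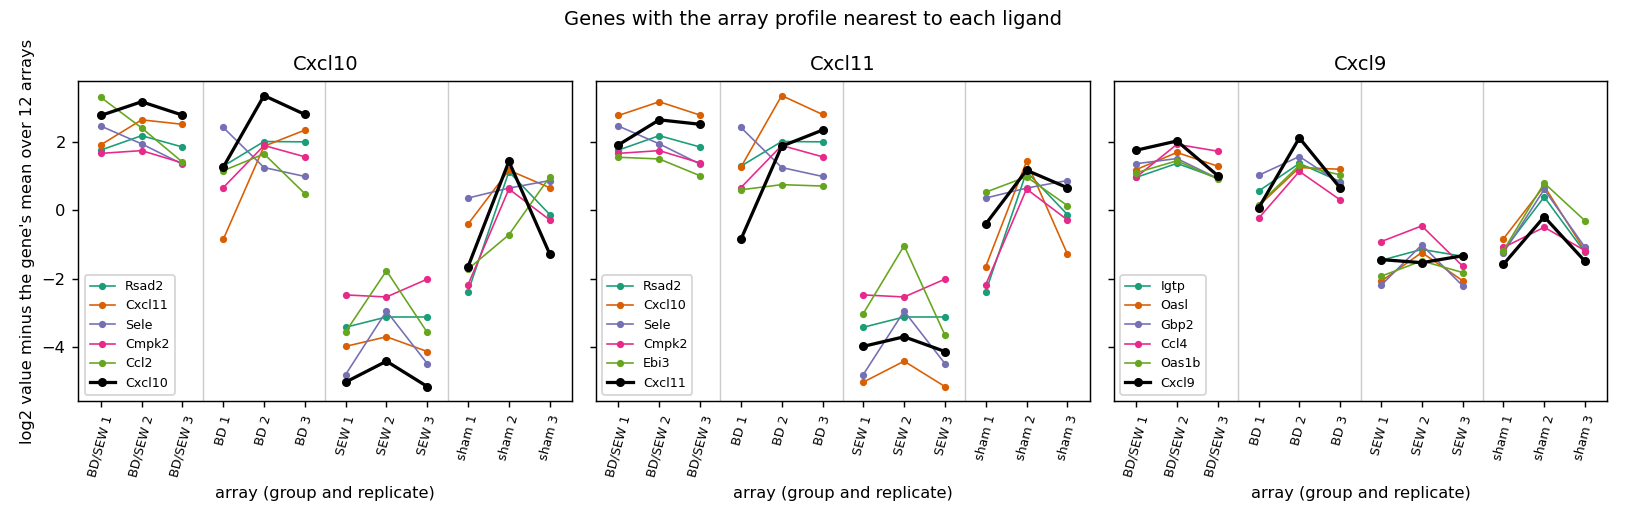
Log2 values minus each gene's mean over 12 arrays (vertical axis) for each ligand (black) and its 5 nearest genes, by array (horizontal axis, grouped as BD/SEW, BD, SEW and sham). Sham replicate 2 is the highest sham array for all 3 ligands, at 11.71, 10.30 and 7.46 before centring.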

How the data were processed

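RNA from 6 ug of total RNA per lung sample was hybridised to 12 arrays. Per the labels, RMA, MAS5 and affy are the tools of the submitters' processing notes, with no role or version. The authors deposited log2 expression for 31042 probe sets, 0 of them controls, and the 12 arrays differed by at most 0.22 at any rank. The background correction is not given in the sources used here. Symbols came from the array annotation (20826 probe sets with 1 symbol, 436 with several, 9780 without) and were updated by gene ID to RefSeq GRCr8, where 20758 matched. Of several probe sets for a gene (4525 genes), that with the highest mean was used, which left 14217 genes.

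From these values 1 mean per group was fitted over all 12 arrays with limma 3.58.1 in R 4.3.3, with variances moderated on a mean trend. Tests were two-sided, p-values were adjusted by Benjamini-Hochberg over all 14217 genes, and called means an adjusted p under 0.05. The fit was tested on simulated data.

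The members, the 7 related lists and the marker lists were chosen with earlier results of these data known, so their counts are no independent support. Genes named are the 4 members, the 5 nearest to each ligand, up to 4 called genes with the largest change per list and comparison, and Ifng, Irf1, Dpp4 and S1pr1. Arrays of a group differed from each other with an SD of 0.21 to 0.44 over genes, so none was a repeat deposit. Alternatives were other samples in the fit, a replicate block, array weights, variance settings, probe set rules, a filter on dim genes, normalization, a cardiac covariate, and arrays left out.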

Additional observations from a re-analysis of the deposited data

Results flagged for a closer look

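For Cxcl11 the difference BD/SEW minus SEW was larger than the difference BD minus sham. The interaction of 5.64 (log2) passed the test of the difference itself (limma adjusted p = 0.021). The range of its adjusted p over the alternatives was 0.0059 to 0.071. That of Cxcl10 was 4.79 and passed narrowly (limma adjusted p = 0.0499, and 0.016 to 0.14 over the alternatives). In both, BD/SEW and BD arrays overlapped, and SEW and sham arrays did not. The labels do not say whether SEW animals had the sham operation, so agonist and operation cannot be told apart here.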

How the results depend on the processing

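Over the alternatives, the fall of Cxcl10 and Cxcl11 in SEW against sham passed in all but the cardiac covariate, and the rise of all 3 ligands in BD/SEW against SEW passed in all. The number of the 4 genes called in BD against sham (0) was 1 with the replicate block, where Cxcl10 passed (adjusted p = 0.036), and 0 to 1 with an array left out. In SEW against sham the count of 2 was 0 with the cardiac covariate, whose values did not overlap between those groups. In BD/SEW against sham the count of 2 was 0 with the cardiac covariate or at an adjusted p under 0.01, and 0 to 2 with an array left out. For the interaction the count of 2 was 1 without the mean trend, with the robust prior, with the mean of probe sets, with quantile normalization again, with arrays centred on the median, with the cardiac covariate and over every probe set, 0 at an adjusted p under 0.01, and 0 to 2 with an array left out. The cause was not tested for these. Signs turned for 3 results that were not called, Cxcl9 in SEW against sham (0.48 with the cardiac covariate, and -0.59 to 0.10 with an array left out, positive without sham replicate 2), Cxcl10 in BD/SEW against BD (-0.17 to 0.88, negative without BD replicate 1) and Cxcr3 in BD/SEW against BD (-0.012 to 0.16, negative without BD replicate 2, and again -0.012 without the 3 arrays that stood apart, namely BD 2, SEW 2 and sham 3). The labels give the replicate numbers no meaning as pairs, so the samples were not treated as paired. The 18 pairs of same-numbered arrays correlated at -0.19 to 0.38 in their deviations from group means, 8 of them over 0.1. Used as a block, the numbers moved the calls in BD against sham to 69 of all genes, against 84 without the block. The SE of the Cxcl10 difference there was 0.48 with the block and 0.70 without it. Among arrays of other groups, 9 of 12 arrays correlated best with one of their own number, a hint from the data and not from the design. Whether same-numbered arrays shared a batch was not tested. Over all genes, calls ranged across the alternatives from 13 to 499 in BD against sham (84 as reported), 24 to 1556 in SEW against sham (830), 0 to 8 in BD/SEW against BD (2), 790 to 2506 in BD/SEW against SEW (1392), 6 to 2685 in BD/SEW against sham (408) and 38 to 464 for the interaction (135). The filter on dim genes left out Cxcr3, so it gave no value there. Signal over background was not measured, which limits the values of Cxcl10 and Cxcl11 in SEW.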
